A study of Brassica napus with 6 samples.

Results

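Genes of the route that makes valine, leucine and isoleucine were examined in the roots of oilseed rape (Brassica napus) after reduced glutathione (GSH, a tripeptide thiol) had been put on the leaves. The group was set as 5 Arabidopsis loci, chosen by their place in the route and with the values of the GSH and control arrays already seen. It held the dihydroxyacid dehydratase AT3G23940, the ketol-acid reductoisomerase AT3G58610, the acetolactate synthase regulatory subunits AT2G31810 and AT5G16290, and the threonine deaminase AT3G10050. A locus was matched to a probe of the Arabidopsis array that the platform annotation pairs with 1 gene. This gave 3 members with 1 probe each, AT3G23940, AT3G58610 and AT2G31810, among 13350 genes matched in the same way, while AT5G16290 and AT3G10050 were not analysed here. The tested plants had 50 µL of 100 mM GSH brushed on each of 3 fully grown leaves every day for 4 days (3 arrays). The control plants of the same cultivar, Nourin No.16, and the same age of 4 weeks were left untreated (3 arrays). The labels name no brushing with the carrier solution (MES buffer with Triton X-100) for the controls, so GSH and the brushing cannot be told apart. The labels call the arrays biological replicates without saying how many plants or containers each holds, so the SDs below describe the spread between these arrays.

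Plants make the 3 branched-chain amino acids in plastids with one set of shared enzymes. Acetolactate synthase joins pyruvate with a second keto acid, and its regulatory subunit lets the end products hold the enzyme back. Ketol-acid reductoisomerase then rearranges and reduces the product with NADPH, and dihydroxyacid dehydratase, an iron-sulfur enzyme, removes water to give the keto-acid precursors. Threonine deaminase turns threonine into the keto acid that leads to isoleucine. Branched-chain aminotransferases complete valine and isoleucine, while leucine has a branch of its own before its aminotransferase step. These enzymes are needed for growing tissue such as root tips, and acetolactate synthase is the target of several herbicides.

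Rape RNA was read by probes of a related species. The related copies of a gene in the rape genome therefore cannot be told apart, and levels of different probes are not compared beyond saying in which quartile of the array a probe lies. The deposited log-scale values hardly differed between arrays: the median probe spanned 1.91 millionths of a deposited unit from its lowest to its highest array. Values are therefore given as deviations from the probe's own mean over the 6 arrays, in millionths of a unit, and they are neither fold changes nor comparable in size between probes. The medians of the arrays themselves spanned 3.465 millionths, more than the range of the median probe. In limma's moderated test over 22746 probes, 0% (0 probes) passed the threshold of 0.05 after Benjamini-Hochberg adjustment. Every SE below comes from this fit, in which the variance of a probe is drawn partly towards that of all probes. An SE can therefore be smaller than the spread of the probe's own arrays would give. At an unadjusted p under 0.05 there were 1535 probes by limma (6.75%) and 1012 by the unmoderated test with unequal variances (4.45%). The members were chosen with values of this comparison known, so their own values are a description without a test. In root tissue, a smaller number of cells of a type and less RNA per cell cannot be told apart.

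The dehydratase was the member that stood apart between the groups. AT3G23940 deviated by -13.7, -14.0 and -10.0 millionths in GSH-treated roots 1 to 3, against 16.5, 8.57 and 12.7 millionths in control roots 1 to 3. Every GSH array lay below every control array. The highest GSH value and the lowest control value were 18.6 millionths apart, while the values within a group ranged over 3.97 millionths in GSH-treated roots and 7.90 millionths in control roots. The group means were -12.6 ± 2.20 millionths after GSH and 12.6 ± 3.95 millionths in controls (SD, n = 3 each), a difference of -25.2 millionths (SE 2.38). No single array carried the difference, which ran from -27.2 to -23.2 millionths when each array was left out once. The probe (256862_at) was bright, with a mean of 7.42 on the deposited log scale against an array upper quartile of 6.06.

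The reductoisomerase, which acts one step before the dehydratase, was lower in only part of the GSH group. AT3G58610 deviated by -3.24, -5.21 and 2.56 millionths in GSH-treated roots 1 to 3, against 1.60, 1.77 and 2.51 millionths in control roots 1 to 3. GSH replicates 1 and 2 lay below all controls, GSH replicate 3 lay above all of them, and so the groups overlapped. The means were -1.96 ± 4.04 millionths after GSH and 1.96 ± 0.482 millionths in controls (SD, n = 3 each), with a difference of -3.93 millionths (SE 2.14) that was smaller than the SD of the GSH group. Its size depended on single arrays: it was -6.19 millionths without GSH replicate 3 and -2.30 millionths without GSH replicate 2. The probe (251536_at) had a mean of 7.49, also above the array upper quartile.

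Along principal component 1 over all probes, the only component examined, the arrays did not divide by treatment. After scaling of all probes to equal spread, principal component 1 (25.5% of the variance) put GSH replicate 3 (0.256) on the same side as controls 1 and 3 (0.214 and 0.535). GSH replicates 1 and 2 (-0.753 and -0.0944) lay on the other side together with control 2 (-0.158). The root hair expansin EXPA7, a cell wall loosening protein used as a marker of root epidermis, deviated by -35.7, -32.5 and 27.2 millionths in GSH-treated roots 1 to 3, against 5.15, 1.73 and 34.1 millionths in control roots 1 to 3. As at the reductoisomerase, GSH replicates 1 and 2 were low and GSH replicate 3 was near the highest control. The other measured root marker, the root hair expansin EXPA18, did not follow this order, with -0.149, -4.20 and 1.16 millionths in GSH-treated roots 1 to 3, against -2.20, -6.19 and 11.6 millionths in control roots 1 to 3. The part of root hair RNA or of this array in the reductoisomerase values was not tested.

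The regulatory subunit of acetolactate synthase, at the head of the shared route, showed no separation of the groups. AT2G31810 deviated by -2.85, 2.57 and 0.681 millionths in GSH-treated roots 1 to 3, against 0.546, -0.378 and -0.569 millionths in control roots 1 to 3. The GSH arrays held both the lowest and the highest of the 6 values. All controls lay between GSH replicates 1 and 3, and GSH replicate 3 lay just above control 1. The means were 0.134 ± 2.75 millionths after GSH and -0.134 ± 0.596 millionths in controls (SD, n = 3 each), a difference of 0.268 millionths (SE 1.48). The sign rested on single arrays, since the difference was -0.949 millionths without GSH replicate 2 and -0.00533 millionths without GSH replicate 3. The probe (263460_at) had a mean of 6.26, above the array upper quartile.

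**Figure D1:**
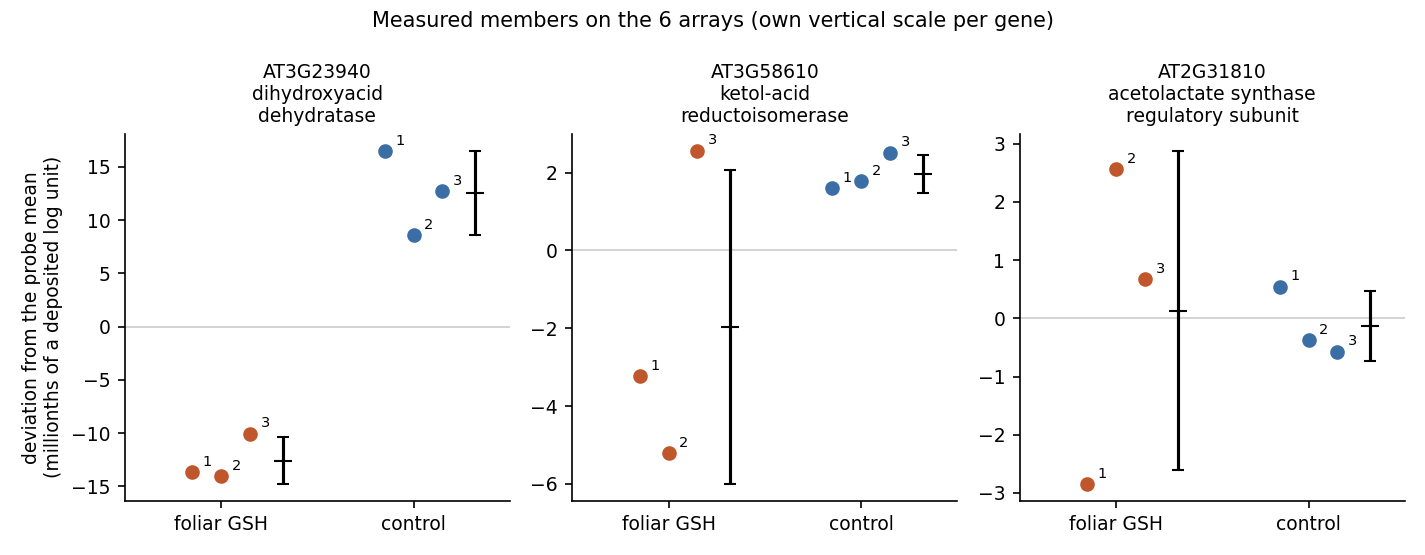
Deviation of each array from the probe's own mean, in millionths of a deposited log unit, for the 3 measured members, with foliar GSH on the left and control on the right of each panel. Points are arrays with their replicate numbers, and the bars show the mean and SD of 3 arrays on a vertical scale of their own for each gene. The groups are 18.6 millionths apart at AT3G23940 and overlap at AT3G58610 through GSH replicate 3. At AT2G31810 the GSH arrays lie on both sides of the controls.

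Among the 3 measured members, all GSH arrays lay below all controls at 1 member and above them at 0, beside 5.75% and 5.63% of all probes tested. The mean was lower after GSH at 2 of the 3, beside 48% of all probes. With each array centred on its median, the mean was again lower at 2 of the 3 and the dehydratase lay below all controls, beside 18.6% and 1.97% of all probes, while 7.97% lay above. Centring added 0.598 millionths to every difference, and so itself reduced the share of probes with a lower mean from 48%. Without GSH replicate 3, the reductoisomerase joined the dehydratase and 2 members lay below all controls, beside 11.2% of all probes with that array left out.

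The members differed from each other in how much of their variance followed the groups. This share has no unit and so can be set side by side. Between the groups lay 95.9% of the variance of the dehydratase AT3G23940, 41.1% of that of the reductoisomerase AT3G58610 and 0.677% of that of the regulatory subunit AT2G31810. The median over all probes was 12.9%. A larger share than at the dehydratase was found at 36 of the 22746 probes, and a larger share than at the regulatory subunit at 20029. The share comes from the comparison already known when the members were chosen, so these places are a description without a test. The median over the 3 members, 41.1%, is the value of the reductoisomerase.

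**Figure D2:**
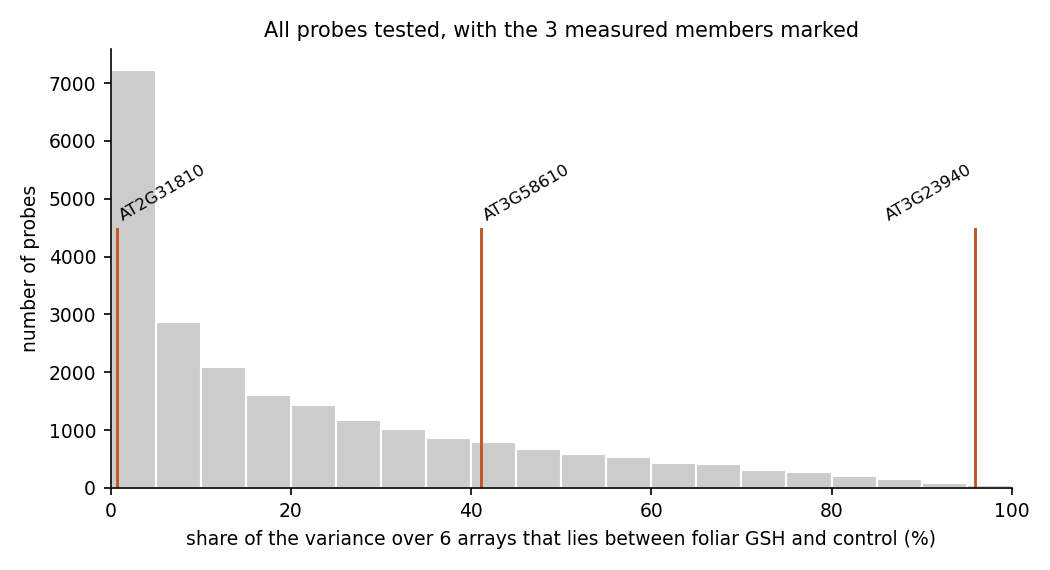
Number of probes (vertical axis) by the share of a probe's variance over the 6 arrays that lies between foliar GSH and control, in percent (horizontal axis, bars of 5 percentage points), for all probes tested. The vertical lines mark AT2G31810 at 0.677%, AT3G58610 at 41.1% and AT3G23940 at 95.9%, so the 3 members lie at opposite ends and in the middle of the range.

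The spread within the groups set the members apart in another way. The reductoisomerase AT3G58610 had an SD among GSH-treated roots 8.39 times that among control roots, and 1.79% of all probes had a larger ratio. For the regulatory subunit AT2G31810 the ratio was 4.61, with 5.27% of probes above it. The dehydratase AT3G23940 was tighter in GSH-treated than in control roots, at a ratio of 0.558, with 79.1% of probes above it. The median ratio over all probes was 1.09, and each SD rests on 3 arrays.

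Around these members, the wider route was represented by 6 further genes. The list of the route, its leucine branch, its aminotransferases and its threonine supply named 36 genes, of which 9 were matched to a probe with 1 gene and are called measured, the 3 members among them. The 11 genes of the leucine branch were not analysed here. By limma 0 of the other 6 genes passed the threshold, with adjusted p from 0.836 to 1.00, and the groups overlapped at all 6. Their mean was lower after GSH at 4 and higher at 2 (3 and 3 with arrays centred on their medians), and their median share of variance between groups was 20.9%, beside 12.9% over all probes.

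The 3 measured genes that feed threonine or its keto acid into isoleucine had lower means after GSH, and at all 3 the groups overlapped. With arrays centred on their medians the sign turned at AT1G72810. Methionine gamma-lyase, MGL, which releases the same keto acid from methionine, deviated by -1.35, -0.335 and -1.42 millionths in GSH-treated roots 1 to 3, against -0.784, 0.882 and 3.01 millionths in control roots 1 to 3. Control 1 lay among the GSH values, and the difference was -2.07 millionths (SE 1.05, with an adjusted p of 0.836 by limma). AT1G14810, the aspartate-semialdehyde dehydrogenase of the common path to threonine, methionine and lysine, differed by -1.14 millionths (SE 0.850, with an adjusted p of 0.935 by limma). The threonine synthase gene AT1G72810 differed by -0.030 millionths (SE 0.456, with an adjusted p of 1.00 by limma).

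The aminotransferases at the end of the route gave differences of both signs. AT1G50110, known in Arabidopsis as a cytosolic branched-chain aminotransferase, deviated by -0.0837, 0.235 and -1.32 millionths in GSH-treated roots 1 to 3, against 0.0943, 0.180 and 0.895 millionths in control roots 1 to 3. GSH replicate 2 lay between controls, and the difference was -0.780 millionths (SE 0.505, with an adjusted p of 0.905 by limma). BCAT4, which in Arabidopsis starts the lengthening of methionine for glucosinolates, differed by 1.81 millionths (SE 2.03, with an adjusted p of 0.993 by limma). The plastid aminotransferase ATBCAT-5 differed by 0.0837 millionths (SE 0.184, with an adjusted p of 1.00 by limma). The BCAT4 and ATBCAT-5 probes were dim, with means of 5.71 and 5.67 between the array lower quartile of 5.67 and the median of 5.84. On the whole list, 1 of 9 genes lay below all controls, the dehydratase, beside 5.75% of all probes. Leaving out an array raises such counts for all probes. The count was 3 without control 1, where AT1G14810 and MGL were added, beside 10.3% of all probes. It was 3 without GSH replicate 2, where AT1G50110 and MGL were added, beside 9.55%, and 2 without GSH replicate 3, where the reductoisomerase was added, beside 11.2%.

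**Figure D3:**
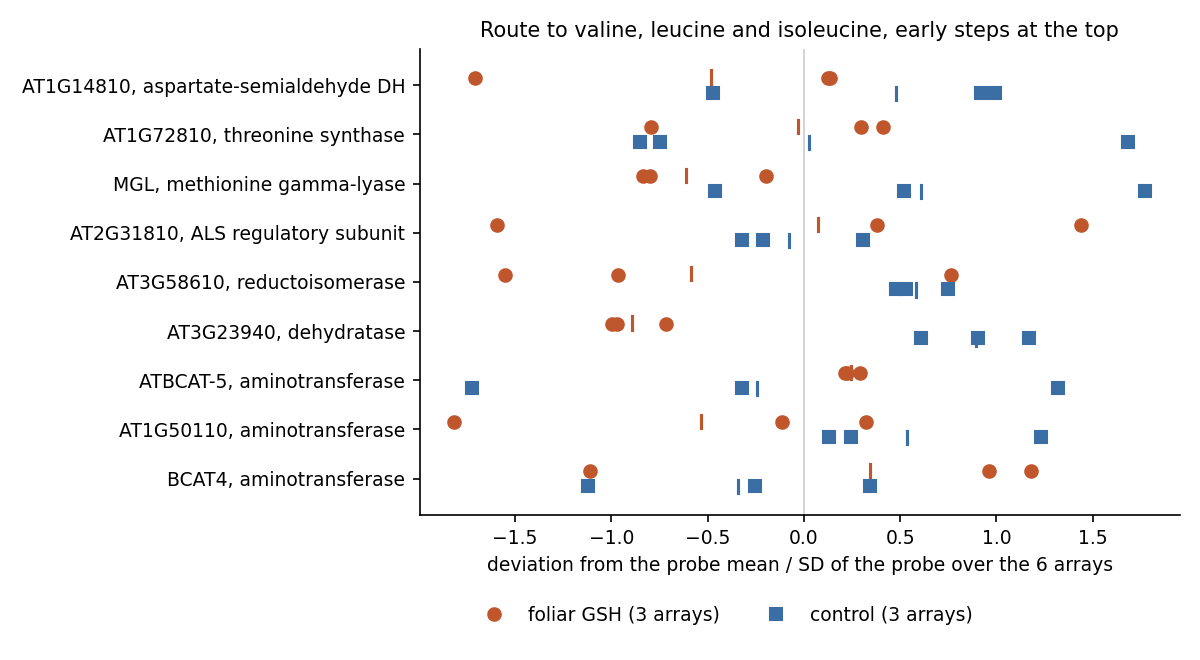
The 9 measured genes of the route from threonine supply (top) through the shared steps to the aminotransferases (bottom), with the deviation of each array from the probe mean divided by the SD of the probe over the 6 arrays on the horizontal axis. Circles are foliar GSH arrays, squares are control arrays and short vertical lines are group means of 3 arrays. Only at AT3G23940 do the 3 GSH arrays and the 3 control arrays not overlap.

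Leucine is broken down again in mitochondria by a separate set of enzymes. Of 10 breakdown genes 5 were measured, and at 3 of them (the carboxylase subunit genes MCCA and MCCB and the dehydrogenase gene IVD) all GSH arrays lay above all controls, beside 5.63% of all probes. MCCA differed by 71.6 millionths (SE 22.6, with an adjusted p of 0.654 by limma), and 0 of the 5 passed over all probes. The gap between the groups was 30.8 millionths at MCCA, where the 6 arrays ranged over 127 millionths. It was only 2.97 millionths at IVD, within a range of 254, and 4.85 millionths at MCCB, within a range of 104. GSH replicate 2 was the highest array at all 3 of these genes.

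Supply of the substrate and the cofactors was covered by few genes. AT4G16155, a plastid dihydrolipoamide dehydrogenase of the complex that also consumes pyruvate, deviated by -1.50, 0.159 and -2.22 millionths in GSH-treated roots 1 to 3, against 2.30, 0.804 and 0.448 millionths in control roots 1 to 3. All GSH arrays lay below all controls, as at 5.75% of all probes, with a gap of 0.289 millionths. The difference was -2.37 millionths (SE 0.832, with an adjusted p of 0.701 by limma). AT2G34590, a subunit of plastid pyruvate dehydrogenase, differed by -1.68 millionths (SE 2.08) with overlapping groups. Of 12 genes for the assembly of iron-sulfur clusters in plastids 2 were measured, and whether they serve the dehydratase was not examined. The cluster carrier gene HCF101 differed by 0.519 millionths (SE 0.263, with an adjusted p of 0.834 by limma) and the cysteine desulfurase gene CPNIFS by -0.012 millionths (SE 0.193, with an adjusted p of 1.00 by limma). THIC, of the synthesis of thiamine, whose diphosphate acetolactate synthase needs, differed by -0.0707 millionths (SE 0.478, with an adjusted p of 1.00 by limma). With arrays centred on their medians, CPNIFS and THIC turned sign, to 0.586 and 0.527 millionths, and the other genes of this paragraph kept theirs.

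The 5 genes whose values followed the dehydratase most closely over the 6 arrays were AT3G62870, AT5G22440, AT3G09200, AT1G52300 and AT2G17360. Likeness was measured as Pearson's r over 6 arrays among 13512 other probes with 1 gene. It was 0.997 for AT3G62870, 0.994 for AT5G22440, 0.993 for AT3G09200 and 0.988 for AT1G52300, which encode proteins of the large ribosomal subunit, and 0.986 for AT2G17360, which encodes one of the small subunit. Spearman's rho was 1.00, 0.943, 0.943, 0.943 and 0.886 in the same order. At all 5 genes, as at the dehydratase, every GSH array lay below every control, so most of each r is the step between the groups. With the group means removed, r was 0.966, 0.865, 0.860, 0.758 and 0.594 in that order. The 5 genes were picked by r over these same 6 arrays. High values with the group means removed are therefore partly fixed by that choice and are a description without a test. The same r over all probes is not given here. An r of 0.95 or more was reached by 53 of the 13512 probes. The share of ribosomal protein genes among these 53 or among all 13512 is not given here.

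The closest of these genes, AT3G62870, shows the same order of arrays. It deviated by -12.2, -12.8 and -6.84 millionths in GSH-treated roots 1 to 3, against 14.0, 7.26 and 10.5 millionths in control roots 1 to 3. In both genes control 1 was highest, control 2 was the lowest control, GSH replicate 3 was the highest of the GSH arrays and GSH replicate 2 the lowest. Which genes came first depended on single arrays: without control 2, GSH replicate 1 or GSH replicate 3, only 1 of the 5 was still among the 5 closest, although r stayed at 0.981 or above for all 5 whichever array was left out.

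**Figure D4:**
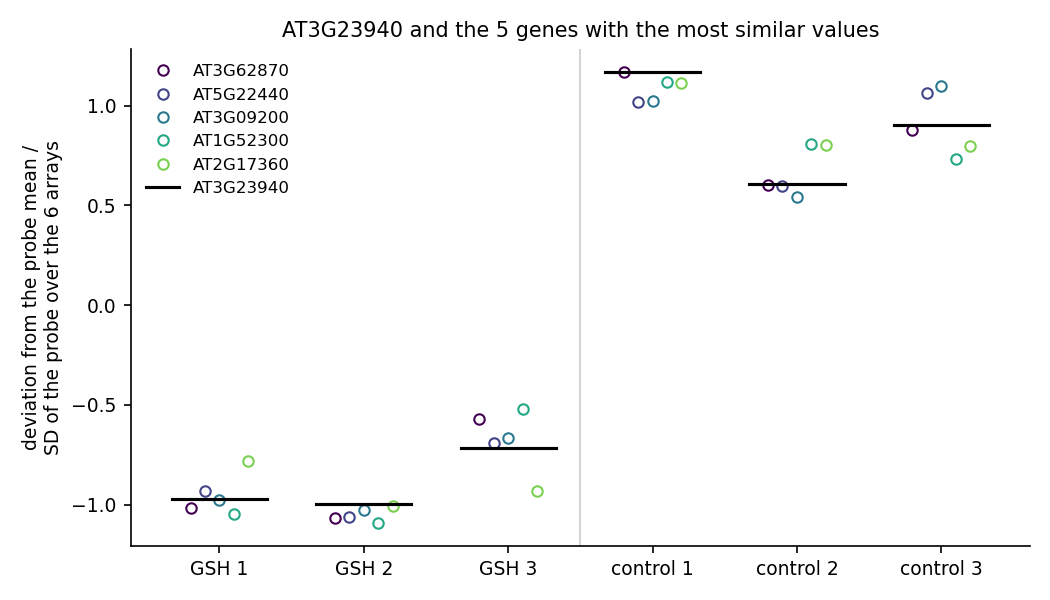
AT3G23940 (black bars) and the 5 genes with the highest Pearson's r to it (circles) on each array, as the deviation from the probe mean divided by the SD of the probe over the 6 arrays, with foliar GSH arrays on the left and control arrays on the right. All 6 genes lie below 0 on the 3 GSH arrays and above 0 on the 3 control arrays, and GSH 3 and control 2 are nearest to 0 for AT3G23940.

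Few tissue markers could be read, and their levels do not bear on the root label. Of 16 root markers 2 were measured, EXPA7 with a mean of 6.13, above the array upper quartile, and EXPA18 with a mean of 5.95, above the array median. Of 9 leaf markers 2 were measured, the activase gene RCA at 6.04, above the array median, and the antenna protein gene LHCB4.1 at 5.75, below it. RCA, a leaf marker, thus lay in the same quartile as the root marker EXPA18. At all 4 markers the groups overlapped, and by limma 0 of the 4 passed.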

How the data were processed

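Total RNA of roots (100 ng) was labelled and hybridised to 6 single-colour arrays, per the labels' protocols. The authors deposited one table of values taken as log2 from their range of 5.09 to 12.9. How background was corrected, how probes were summarised and normalized, and which log base was used is not given in the sources used here. The submitters' processing notes list R 2.7.2. Depth does not apply to arrays, and their number limits the precision.

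The table was used as deposited. Of 22810 probes, 64 array controls were left out and 22746 were tested. The annotation paired 13513 with 1 gene, 503 with several, and 8730 were unnamed here. Of a gene's probes the one with the highest mean was to be used, and each named gene of the lists had 1 probe. The comparison used limma 3.58.1 under R 4.3.3 (lmFit, eBayes, prior degrees of freedom 0.83, Benjamini-Hochberg over 22746 probes, threshold 0.05). The limma fit and the unmoderated test with unequal variances were run on simulated data with known shifts, and the outcome is not given here. The simulated noise had the same spread at every probe, unlike the deposited values.

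The members and all lists were chosen with earlier results of these data known. Named were all measured route genes, up to 3 genes of each other list by unadjusted limma p, and the 5 genes most like AT3G23940. Alternatives were median centring, quantile normalization, the replicate number as a block, trended or robust variance, the unmoderated test with unequal variances (Welch), rescaled probes, brighter probes, the mean of a gene's probes and leaving out each array. The ATBCAT-5, CPNIFS and AT-HF symbols were matched to list loci by hand.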

Additional observations from a re-analysis of the deposited data

How the results depend on the processing

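The count of probes called by limma, 0 on the deposited values, stayed 0 with arrays centred on their medians, robust or trended variance, the unmoderated test and without any single array. It was 1, a lower probe, with a block for the replicate number. Among probes above the median signal, where fewer probes were tested, it was 4 (all lower). After quantile normalization it was 44 (21 higher, 23 lower). With each probe's deviations multiplied by a factor set by its SD and range, it was 337 (104 higher, 233 lower). That factor does not bring probes to equal spread. The cause of these moves was not tested. Quantile normalization left 2688 probes varying and none of the 3 measured members, whose ranks were the same on every array, so it set all 3 differences to 0 and the counts of lower members, of members below all controls and of route genes below all controls to 0. Median centring added 0.598 millionths to every difference and left those 3 counts as they were. Without single arrays, 2 to 3 members had a lower mean, 1 to 2 members and 1 to 3 route genes lay below all controls (beside 9.55% to 11.9% of all probes, against 5.75% with all arrays), and the difference of AT2G31810 ran from -0.949 to 1.76 millionths, turning sign without GSH replicate 2 (-0.949) and GSH replicate 3 (-0.00533). Of the 5 genes most like AT3G23940, 3 were still among the 5 closest with median-centred arrays, 1 to 3 without single arrays and 1 by Spearman's rho, where 21 other probes tie at 1. Same-numbered arrays deviated together with correlations of -0.0188, -0.0181 and 0.103 over probes of equal spread, and 1 of 3 GSH arrays correlated best with its own number, so the numbers were not taken as pairs. In this balanced design a block cannot change a difference of group means (-25.2 millionths for AT3G23940 with and without it), so it tests none of the members' differences.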

Other observations

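Synthesis of other amino acids was covered by 10 measured genes of 55 on the lists for lysine and methionine, aromatic amino acids, histidine and arginine. By limma 0 of them passed, the mean was lower after GSH at 8 and higher at 2, beside 48% of all probes with a lower mean. With arrays centred on their medians it was lower at 3 and higher at 7, beside 18.6%. On the deposited scale the median share of variance between groups was 21.7%. In the aromatic route, AT5G66120, a dehydroquinate synthase, deviated by 0.131, 0.973 and 0.744 millionths in GSH-treated roots 1 to 3, against -1.07, -0.185 and -0.592 millionths in control roots 1 to 3. All GSH arrays lay above all controls there, as at 5.63% of all probes. The difference was 1.23 millionths (SE 0.349, with an adjusted p of 0.616 by limma). AT2G04400, the indole-glycerol-phosphate synthase of tryptophan synthesis, lay below all controls on all GSH arrays, as at 5.75% of all probes. Its difference was -1.36 millionths (SE 0.548, with an adjusted p of 0.747 by limma). At the first step of that route, AT1G22410 differed by 10.6 millionths (SE 10.0) with overlapping groups.

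All 4 measured arginine genes had lower means after GSH, all with overlapping groups, and 3 of them turned sign with arrays centred on their medians. OTC, the ornithine carbamoyltransferase, deviated by -30.8, -2.86 and 12.3 millionths in GSH-treated roots 1 to 3, against 2.53, 6.13 and 12.7 millionths in control roots 1 to 3, a difference of -14.3 millionths (SE 11.8, with an adjusted p of 0.952 by limma). As at AT3G58610, GSH replicate 3 lay near the highest control. The argininosuccinate synthase AT4G24830 differed by -0.487 millionths (SE 0.322) and AT2G37500, which forms ornithine, by -0.327 millionths (SE 0.276). Of the histidine genes, HISN5B differed by -1.88 millionths (SE 1.70) and AT-HF by -0.385 millionths (SE 0.627), and the methionine gene CBL by -0.260 millionths (SE 1.64).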
